A study of Mus musculus with 16 samples.

Results

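Ion channel and neurotransmitter receptor genes were followed across 8 mouse cell lines and clones. The set holds every protein-coding row of the gene table whose symbol names a potassium (Kcn), sodium (Scn and a digit) or voltage-gated calcium (Cacn) channel subunit, an AMPA (Gria), NMDA (Grin), kainate (Grik), GABA-A (Gabr) or glycine (Glra, Glrb) receptor subunit, and whose mean level over all 16 libraries was at least 1 CPM (counts scaled to the size of the library). Of 53333 rows of the table, 174 carried such a symbol and 46 of these passed the level. The mean level chose the genes, but 3 of the 46 passed it only through the group where they were highest: without that group, Kcnn3 (METTL3 KO) averaged 0.701 CPM over the other 7 groups, Cacna2d3 (m3) 0.933 CPM and Gabre (ko1-4) 0.748 CPM. Their differences from those groups follow in part from the choice, are given in the text as levels with no test, and are included in the counts of genes called. Closest above the limit were Gabre (1.01 CPM), Kcnn3 (1.10 CPM) and Kcnj14 (1.16 CPM), and below it lay Kcnmb4 (0.887 CPM) and Kcnn1 (0.791 CPM).

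Voltage-gated channels open and close with the membrane potential: sodium and calcium channels carry the inward currents that start an action potential and trigger transmitter release, and potassium channels return the cell to rest. Each channel is built from pore-forming subunits, which carry the ions, and auxiliary subunits, which set gating and transport to the membrane. Ionotropic glutamate receptors excite, and GABA-A and glycine receptors mostly inhibit, mature neurons of the hippocampus, and most of them work only as assemblies of several subunits.

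All cells were mHiPPoE-2, a transformed neuronal line from mouse hippocampus (strain label Crl:CFW(SW)-024), grown without treatment and profiled by sequencing of total RNA after removal of ribosomal RNA. The 8 groups had 2 libraries each. WT cells were unedited. METTL3 KO was a single clonal isolate made with Cas9; METTL3 is the enzyme that writes the m6A mark on RNA. Control clones e1 and e4 had received Cas9 with no guide RNA. RBM45 KO clones ko1-4 and ko2-3 were made with Cas9 and a guide against Rbm45, which encodes an RNA-binding protein. Rescue clones m2 and m3 were RBM45 KO cells that carried an F-HA-tagged RBM45 mutated at the guide's site. Apart from WT, every group was thus a clone grown from cells that had received Cas9, METTL3 KO was 1 clone, and each of the other genotypes was 2. The columns of e1 and e4 match no label by name and were taken as the controls because all the others match another group. The names of the rescue columns do not show from which RBM45 KO clone each came. Rescue and RBM45 KO clones may therefore not be independent of each other. Nothing says that the libraries of a group came from separate cultures, so the p-values speak only to the spread among these libraries, which may be technical.

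Libraries held 7193908 to 18751324 counts, of which 3448 to 16577 fell on the 46 genes. The 12 most abundant rows took 53.3% to 70.6% of a library, with the highest share in ko1-4 library 1 and the lowest in m3 library 1. Mettl3 was at 3.48 ± 0.137 CPM (SD, n = 2) in METTL3 KO and 10.0 ± 1.84 CPM (n = 2) in WT. Rbm45 was at 8.02 ± 1.97 CPM in the RBM45 KO libraries, 14.8 ± 2.02 CPM in the controls and 23.3 ± 2.19 CPM in the rescue libraries (SD, n = 4 libraries of 2 clones each). Of 17 neuron markers, 4 reached 1 CPM and Dcx, Nefl and Stmn2 had no count in any library; Rbfox3 and Snap25 had 2 counts each, while Map2 averaged 84.1 CPM. The progenitor marker Nes averaged 245 CPM and the mesenchymal marker Vim 968 CPM. Summed marker levels below rest mostly on Map2 for neurons, Nes for progenitors and Cx3cr1 (37.9 CPM) for microglia.

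By number of genes, potassium channels led those present, followed by calcium channels, receptors and sodium channels. Of the candidate symbols, 8 of 40 voltage-gated potassium (Kv) pore subunits passed the level, 5 of 13 Kv auxiliary subunits, 3 of 12 calcium- and sodium-activated potassium channel genes, 4 of 15 inward rectifiers and 4 of 14 2-pore-domain potassium channels. Of the sodium channels, 2 of 10 pore subunits and none of 4 beta subunits did. Calcium channels stood at 4 of 10 pore and 8 of 16 auxiliary subunits. Among receptors, 1 of 4 AMPA, 3 of 7 NMDA, 1 of 5 kainate, 1 of 19 GABA-A and 2 of 5 glycine receptor subunits passed. Of the 128 candidates left out, 74 had fewer than 10 counts over all libraries, and 24 of these had none.

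The NMDA and kainate receptor subunits that passed the level had little RNA of the partners they need to form a working receptor. Grin2d, Grin2a and Grin3b averaged 11.6, 3.27 and 1.24 CPM. Grin1, the subunit every NMDA receptor contains, averaged 0.120 CPM (27 counts in all libraries). Reads of Grin2d and Grin3b cannot be told apart from those of genes on the other strand. Kdelr1 held 4193 counts against 2444 for Grin2d, and Tmem259 5954 against 255 for Grin3b. Of Grin2d, 614 counts lay in exon bins and 188 in introns. Grik5, which needs a partner from Grik1 to Grik3, averaged 36.7 CPM, and Grik1, Grik2 and Grik3 averaged 0.136, 0.0998 and 0.306 CPM. Gria3 was the only AMPA receptor subunit above the level at 29.2 CPM, with Gria2 at 1 count in total. The auxiliary subunits Kcnab1 and Kcnab2 averaged 31.1 and 6.70 CPM, and of the Kcna genes, whose channels they bind, none passed: Kcna1, Kcna2 and Kcna3 had no count. Nphp4 on the other strand of Kcnab2 held 2089 counts against its own 1383. These are gene-body levels of RNA, not scaled by length, and say nothing of protein.

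For a ranking of different genes, levels were taken per length, as CPM per kilobase of exon bins. These bins are the parts of exons that do not overlap each other. A fragment that spans several bins counts in each, which can raise the level of genes of many short exons. Cacnb3 had 12668 exon-bin counts beside 8189 for its gene body, Grik5 9605 beside 7883, and Kcnj4 593 beside 727. The ranking is therefore approximate. Cacnb3, a cytoplasmic beta subunit that brings calcium channels to the membrane (chromosome 15, 98630840 to 98644529, plus strand, GRCm38), was the highest at 15.5 ± 4.20 CPM per kb (SD over 16 libraries). Grik5 (chromosome 7, 25009849 to 25072346, minus strand) followed at 8.80 ± 1.69 CPM per kb. Cacng7, a transmembrane subunit that also binds AMPA receptors, stood at 6.09 ± 1.35 CPM per kb. Cacna1c, the pore of an L-type calcium channel, was at 2.21 ± 0.299 CPM per kb, Cacna2d1, an extracellular calcium channel subunit, at 2.14 ± 0.553 CPM per kb, and Gria3 at 1.79 ± 1.11 CPM per kb. The highest of each potassium family were Kcnj4 (1.32 ± 0.577 CPM per kb), Kcnk3 (1.31 ± 1.13 CPM per kb), Kcnab2 (0.970 ± 0.401 CPM per kb), Kcnd3 (0.755 ± 0.869 CPM per kb) and Kcnt2 (0.196 ± 0.131 CPM per kb). Grin2d led the NMDA subunits at 0.423 ± 0.165 CPM per kb and Glrb the glycine receptor subunits at 0.639 ± 0.530 CPM per kb. For Kcnd3 the SD exceeded the mean.

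**Figure D1:**
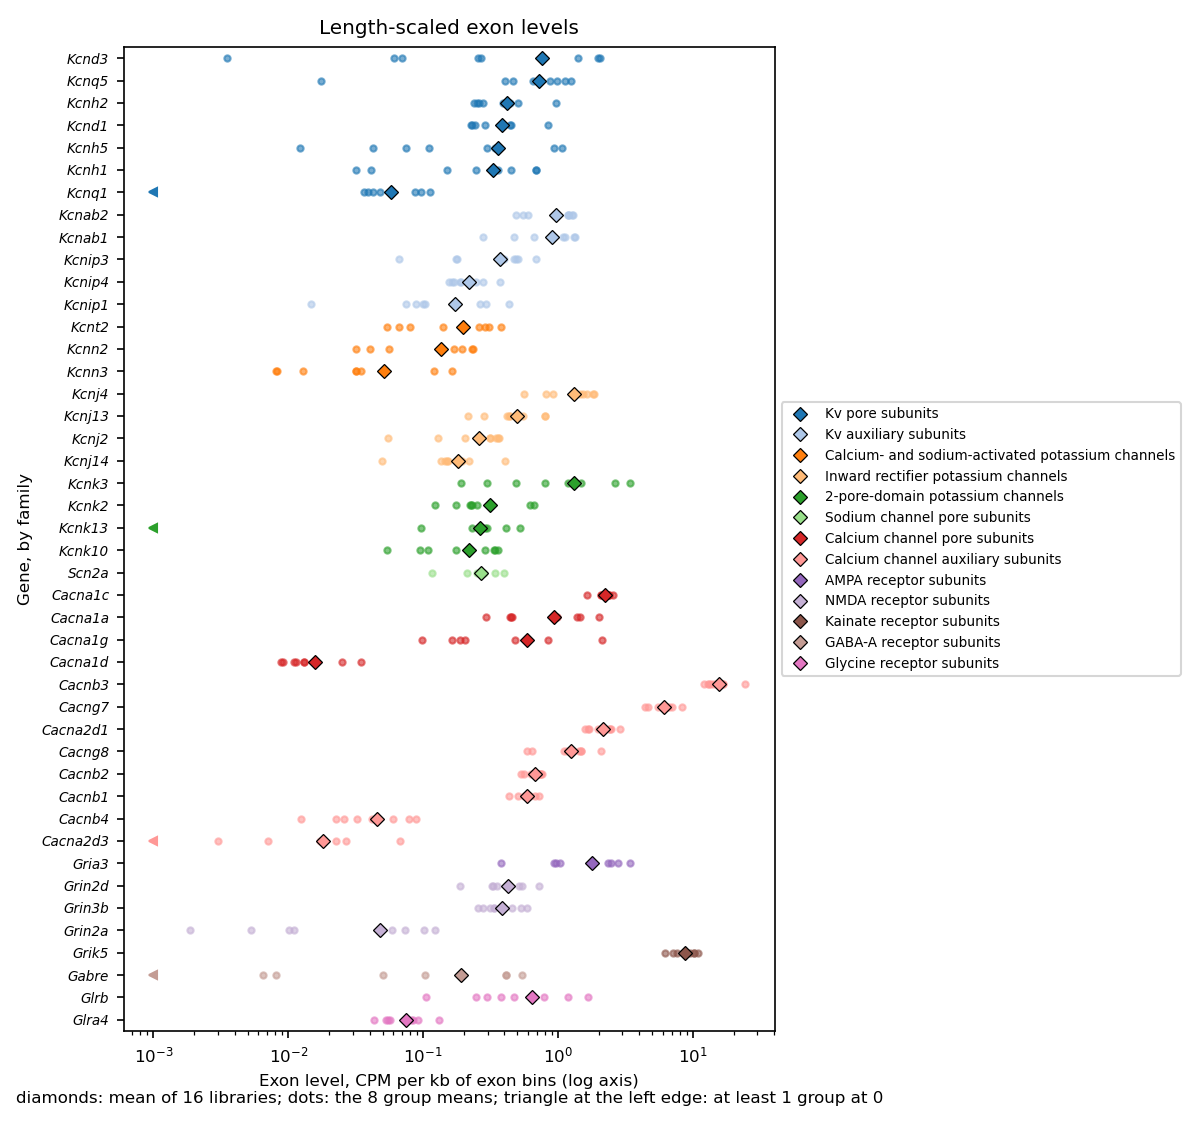
Exon level of 44 of the 46 genes in CPM per kb of exon bins on a log axis, grouped and coloured by family; diamonds are means of 16 libraries, dots are the 8 group means, and a triangle marks a gene with at least 1 group at 0. Cacnb3, Grik5 and Cacng7 lie furthest right, and their group means lie close together, while those of Kcnd3, Kcnh5 and Grin2a spread widely.

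The gene table counts whole gene bodies, introns included. Gene bodies of at least 100 kb occurred in 23 of the 46 genes, and in 21 of these 23 less than 50% of the exon plus intron counts lay in exon bins. The share was 9.19% for Kcnq5, 25.3% for Cacna1c and 88.5% for Cacnb3. Fragments that span several exon bins count in each, which can raise the share for genes of many short exons. For 10 genes a gene on the other strand held at least as many counts, and since the library kit keeps no strand, the reads of such a pair cannot be told apart: Kcnq1, Kcnh1, Kcnab2, Kcnip4, Kcnj13, Cacna1d, Cacnb1, Grin2d, Grin3b and Glra4. Kcnq1 is the extreme case. Of its exon and intron counts 0.444% were exonic (48 counts), and the gene body had 10760 counts against 11032 for Kcnq1ot1, the imprinted antisense RNA that lies within it. Its value therefore belongs to the pair. A further 19 genes had an antisense row with fewer counts than their own, and 17 had none with counts.

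Most of the 46 genes differed among the 8 groups. In the edgeR quasi-likelihood test of any difference, 39 of 46 had an adjusted p under 0.05 (called, below), against a background of 57.0% of the 16223 rows tested and 60.7% of those of at least 1 CPM. The 7 not called were Kcnq1, Kcnip4, Kcnj13, Kcnj14, Scn2a, Grin3b and Glra4. Among the smallest adjusted p-values were those of Kcnd3 (3.20e-12), Cacna1a (4.95e-10), Kcnh1 (2.66e-09) and Kcnk3 (3.46e-09). The median ratio of the highest to the lowest group mean was 3.82 over the 46 genes and 1.79 over the 13702 rows of at least 1 CPM. The ratio passed 10 in 15 genes, which is 32.6% of them and 4.04% of those rows. Control clone e4 was the lowest group for 20 of the 46 genes, and for 15.8% of rows of at least 1 CPM. Rescue clones m2 and m3 were the highest group for 12 and 10 genes, and for 9.85% and 13% of such rows.

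**Figure D2:**
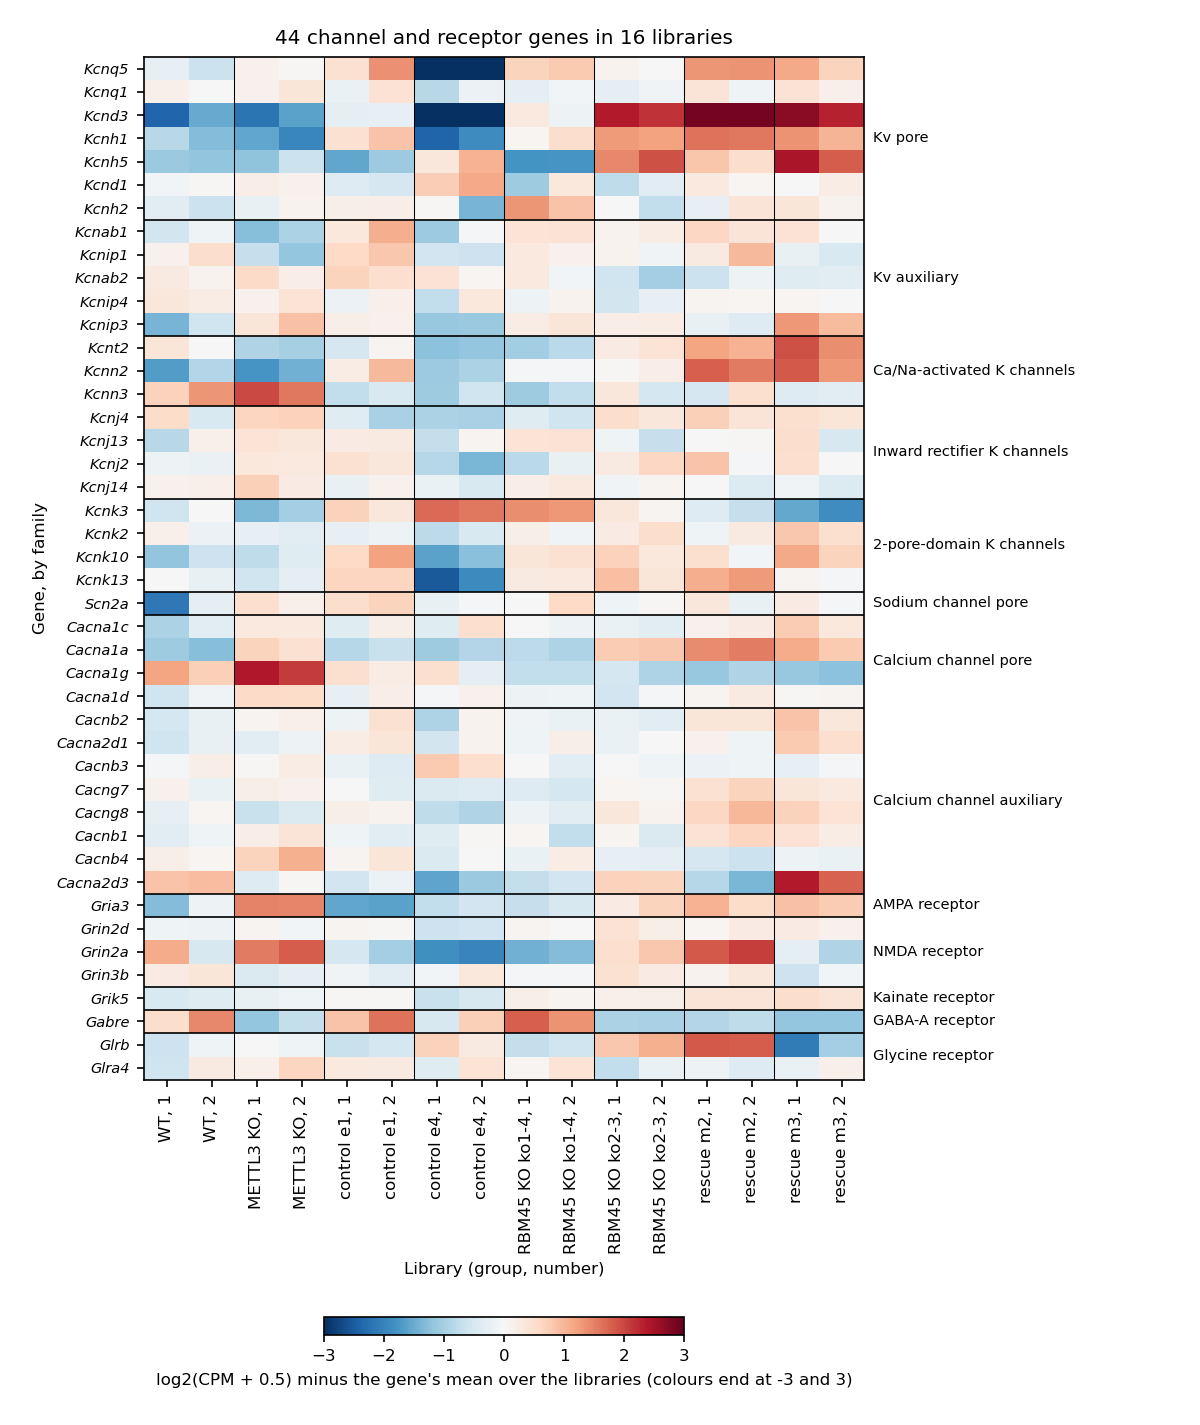
Heat map of log2(CPM + 0.5) of 44 of the 46 genes (rows, by family) in each of the 16 libraries (columns, by group), centred on the gene's mean; colours end at -3 and 3. Control clone e4 is the darkest blue for Kcnq5 and Kcnd3, and Kcnd3 is dark red in ko2-3, m2 and m3.

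Clones of the same genotype differed at these genes. Between the control clones, 24 of 46 genes were called (6 higher and 18 lower in e4), against 19.6% of all rows tested (9.96% higher and 9.61% lower) and 21.7% of rows of at least 1 CPM. Between the RBM45 KO clones 18 were called (12 higher and 6 lower in ko2-3; background 14.1%, with 6.49% higher and 7.65% lower, and 15.2% of rows of at least 1 CPM), and between the rescue clones 8 (3 higher and 5 lower in m3; background 2.29%, with 0.807% higher and 1.48% lower, and 2.38% of rows of at least 1 CPM). Without ko1-4 library 1 the 18 became 9 (1472 of 17120 rows), and without ko2-3 library 2 they became 10 (1271 of 17014 rows). The 8 became 5 without m2 library 2 (147 of 17105 rows) or m3 library 2 (173 of 16974 rows). They became 4 without m3 library 1 (106 of 16987 rows) or with exon bins only (263 of 15031 rows). In e4 against e1 the median log2 change was -0.52 over the 46 genes and -0.01 over all rows. These comparisons rest on 2 libraries against 2 and compare clones, not genotypes. Summed levels of 6 astrocyte markers, of which only Slc1a3 reached 1 CPM, were at 16.7 to 25.7 CPM in e4 and 2.79 to 2.98 CPM in e1. Mesenchymal markers were at 1544 to 2114 CPM in e4 and 2433 to 2786 CPM in e1. Those of 17 neuron markers, mostly Map2, were at 111 to 118 CPM in ko1-4 and 49.4 to 62.7 CPM in ko2-3. Mesenchymal markers were at 2923 to 3369 CPM in ko1-4 and 2260 to 2396 CPM in ko2-3. Their part in the differences between clones was not tested.

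**Figure D3:**
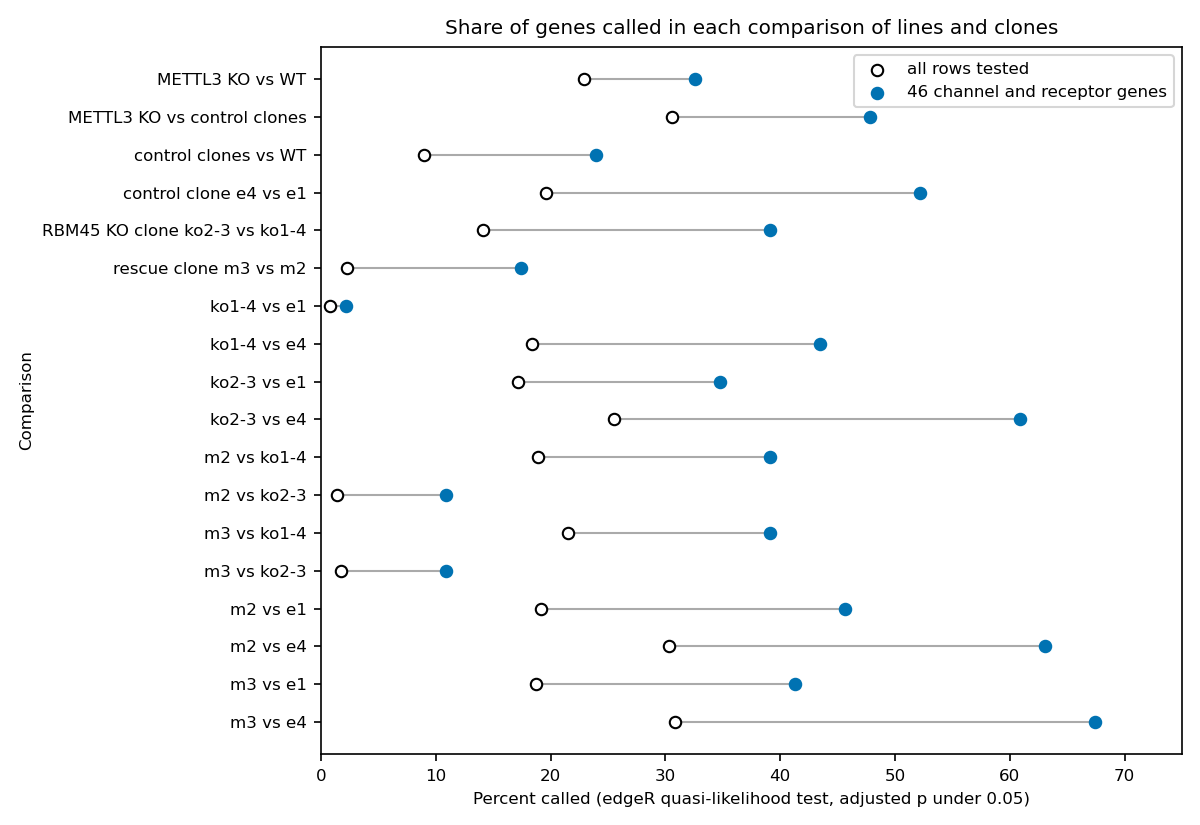
Percent of genes called by the edgeR test (x axis) in each of 18 comparisons of lines and clones (y axis), for the 46 channel and receptor genes (filled) and for all rows tested (open). The filled point lies to the right in every comparison, from 2.17% against 0.771% in ko1-4 vs e1 to 67.4% against 30.8% in m3 vs e4; comparisons that use the same libraries are not independent.

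Of the 8 voltage-gated potassium channel pores, 6 were called between the control clones (background 19.6% of all rows). Kcnd3, the pore of a fast-inactivating A-type channel (chromosome 3, 105452330 to 105674002, plus strand), had 0.977 and 2.17 CPM in WT, 1.19 and 2.03 CPM in METTL3 KO, 5.77 and 5.95 CPM in e1, 0.200 and 0.0673 CPM in e4, 8.85 and 6.42 CPM in ko1-4, 39.5 and 33.9 CPM in ko2-3, 56.1 and 55.7 CPM in m2, and 49.7 and 37.3 CPM in m3. The libraries of e4 lay below all the others, and those of ko2-3, m2 and m3 above all the others. The e4 libraries held 3 counts and those of m2 1708, a ratio of 464 after scaling to library size (exact 95% interval 158 to 2250, counting error only). Kcnd3 fell by 5.47 ± 0.49 (SE) on the log2 scale in e4 against e1 (edgeR adjusted p = 4.78e-07) and rose by 2.26 ± 0.21 in ko2-3 against ko1-4 (adjusted p = 6.65e-07).

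Kcnq5, the pore of an M-type channel that restrains repetitive firing (chromosome 1, 21398403 to 21961942, minus strand), had 35.3 and 26.7 CPM in WT, 45.7 and 42.7 CPM in METTL3 KO, 57.0 and 109 CPM in e1, 3.40 and 2.76 CPM in e4, 66.5 and 72.3 CPM in ko1-4, 44.9 and 41.4 CPM in ko2-3, 105 and 107 CPM in m2, and 92.5 and 66.0 CPM in m3. The e4 libraries lay below all the others. The fall in e4 against e1 was 4.75 ± 0.30 on the log2 scale (edgeR adjusted p = 6.90e-09). Kcnh1, an ether-a-go-go channel (chromosome 1, 192190774 to 192510159, plus strand), was low in METTL3 KO (1.30 and 0.862 CPM) and e4 (0.50 and 0.942 CPM) and high in m2 (15.9 and 15.5 CPM), with 6.85 and 9.11 CPM in e1. It fell by 3.36 ± 0.31 in e4 against e1 (adjusted p = 8.53e-07); the gene Hhat on the other strand held 1825 counts against its own 1624.

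Other Kv pores were higher in e4, or differed between other clones. Kcnh5, another ether-a-go-go channel, was higher in e4 than in e1 (3.5 and 5.99 against 0.571 and 1.0 CPM; log2 change 2.61 ± 0.38, edgeR adjusted p = 1.01e-04). It was also higher in ko2-3 than in ko1-4 (8.10 and 11.4 against 0.421 and 0.434 CPM; 4.47 ± 0.45, adjusted p = 1.84e-06) and in m3 than in m2 (1.55 ± 0.27, adjusted p = 0.00299). Without m2 library 2 or m3 library 1 the last of these was no longer called. Kcnd1, another A-type pore, rose in e4 against e1 (1.82 ± 0.37, adjusted p = 0.00211). Kcnh2 was lower in ko2-3 than in ko1-4 (-1.85 ± 0.49, adjusted p = 0.0158), a call lost without ko1-4 library 1 or ko2-3 library 2.

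Sequences just upstream of the genes that fell most in e4 are shown because these genes were all low in that clone. Kcnd3, Kcnq5 and Kcnk13, the 3 largest falls, have promoter entries in RefSeq (GRCm38.p6), each from 250 bases before to 50 bases after a transcript start; 35 of the 46 genes matched an entry. Capitals mark CpG dinucleotides. The Kcnd3 entry lies on chromosome 3 (105451640 to 105451939, plus strand), upstream of the first base of the Ensembl row. The Kcnq5 entries lie on chromosome 1, minus strand, at 21962601 to 21962900 and at 21961893 to 21962192, and that of Kcnk13 on chromosome 12 (99964249 to 99964548, plus strand).
Kcnd3: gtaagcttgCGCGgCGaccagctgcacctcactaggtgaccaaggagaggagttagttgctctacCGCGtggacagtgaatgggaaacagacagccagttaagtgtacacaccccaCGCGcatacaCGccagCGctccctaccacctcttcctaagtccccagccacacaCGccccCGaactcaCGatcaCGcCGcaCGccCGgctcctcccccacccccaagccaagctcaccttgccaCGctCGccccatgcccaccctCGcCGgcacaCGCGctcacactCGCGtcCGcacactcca
Kcnq5, first entry: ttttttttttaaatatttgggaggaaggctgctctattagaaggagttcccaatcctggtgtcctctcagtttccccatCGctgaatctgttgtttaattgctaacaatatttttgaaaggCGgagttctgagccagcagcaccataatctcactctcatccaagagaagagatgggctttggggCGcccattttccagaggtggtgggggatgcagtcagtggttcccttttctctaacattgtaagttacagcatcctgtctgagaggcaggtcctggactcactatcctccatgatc
Kcnq5, second entry: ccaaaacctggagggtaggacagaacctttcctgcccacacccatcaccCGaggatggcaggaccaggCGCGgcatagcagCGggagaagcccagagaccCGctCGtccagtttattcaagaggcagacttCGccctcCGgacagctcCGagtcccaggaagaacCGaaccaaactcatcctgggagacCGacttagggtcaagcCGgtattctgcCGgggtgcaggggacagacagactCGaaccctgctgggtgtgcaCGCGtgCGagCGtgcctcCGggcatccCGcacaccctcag
Kcnk13: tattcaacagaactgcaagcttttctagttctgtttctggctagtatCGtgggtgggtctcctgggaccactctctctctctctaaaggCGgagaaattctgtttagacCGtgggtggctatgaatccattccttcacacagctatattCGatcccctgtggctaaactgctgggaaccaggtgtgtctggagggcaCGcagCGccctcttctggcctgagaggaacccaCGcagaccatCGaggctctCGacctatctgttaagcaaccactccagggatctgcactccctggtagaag
The Kcnd3 entry holds 25 CpG, the Kcnq5 entries 3 and 20, and that of Kcnk13 9; the median over all 32851 entries was 7 and the quartiles were 3 and 20. None of the 4 holds the letters GGGCGG (GC box), TATAAA or TGACGTCA (cAMP response element) on either strand, which are in 35.7%, 13.6% and 1.79% of all entries. Of the 58 entries of the channel and receptor genes, 25 held GGGCGG, 5 TATAAA and 0 TGACGTCA.

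Of the 5 auxiliary subunits of Kv channels, 3 were called between the control clones (background 19.6% of all rows). Kcnip1 and Kcnip3 encode KChIPs, calcium sensors that bind A-type pores such as Kcnd3. Kcnip1 had 17.7 and 23.5 CPM in WT, 9.77 and 6.96 CPM in METTL3 KO, 24.6 and 28.5 CPM in e1 and 10.6 and 10.3 CPM in e4, and fell in METTL3 KO against WT (-1.36 ± 0.24, edgeR adjusted p = 7.49e-04) and in e4 against e1 (-1.33 ± 0.22, adjusted p = 3.01e-04). Kcnip3 rose in METTL3 KO against WT (2.60 and 3.94 against 0.419 and 1.09 CPM; 2.04 ± 0.37, adjusted p = 0.00103), a call that was lost with exon bins only. In e4 against e1 it fell by 1.80 ± 0.37 (adjusted p = 0.00222). Kcnab1, whose product binds Kcna channels, was also lower in e4 than in e1 (-1.19 ± 0.27, adjusted p = 0.00503), and Kcnab2 was lower in ko2-3 than in ko1-4 (-1.01 ± 0.26, adjusted p = 0.0125), a call lost without ko1-4 library 1 or ko2-3 library 2. Kcnip4 was not called in the 8-group test.

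Calcium-activated and sodium-activated potassium channels shape the pause after a spike. Kcnn2, a small-conductance calcium-activated channel, had 0.977 and 2.08 CPM in WT, 0.868 and 1.23 CPM in METTL3 KO, 5.01 and 8.80 CPM in e1, 1.70 and 1.95 CPM in e4, 4.0 and 3.99 CPM in ko1-4, 4.30 and 4.88 CPM in ko2-3, 15.8 and 13.4 CPM in m2, and 16.2 and 11 CPM in m3. In these gene-body counts, introns included, all 4 rescue libraries lay above all the others. Kcnt2, a sodium-activated channel, was likewise highest in m3 (18.9 and 13.1 CPM) and m2 (11.3 and 10.1 CPM) and lowest in e4 (1.70 and 1.82 CPM). Kcnn3 was highest in METTL3 KO, through which it passed the level (4.45 and 3.26 CPM), lower in WT (1.54 and 2.67 CPM), and had 4 counts in ko1-4.

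The 2-pore-domain potassium channels set the resting potential as leak channels. Kcnk3, an acid-sensitive member (chromosome 5, 30588170 to 30625271, plus strand), was the 1 gene of the 4 called higher in e4 than in e1 (background 9.96% higher). It had 2.93 and 4.74 CPM in WT, 1.52 and 2.03 CPM in METTL3 KO, 7.80 and 6.06 CPM in e1, 16.3 and 15.1 CPM in e4, 13.2 and 12.1 CPM in ko1-4, 5.99 and 4.96 CPM in ko2-3, 3.46 and 2.70 CPM in m2, and 1.28 and 0.911 CPM in m3. It rose by 1.20 ± 0.19 in e4 against e1 (edgeR adjusted p = 2.08e-04) and fell by 1.23 ± 0.21 in ko2-3 against ko1-4 (adjusted p = 4.20e-04). Kcnk13 had 4.0 CPM in both e1 libraries and 4 counts in those of e4 (0 and 0.269 CPM; -4.54 ± 0.48, adjusted p = 3.27e-06). Kcnk10, a stretch- and lipid-sensitive channel, fell from 6.91 and 10.7 CPM in e1 to 1.10 and 1.55 CPM in e4 (-2.68 ± 0.33, adjusted p = 1.60e-05). Of the inward rectifiers, which hold the membrane near rest, 1 of 4 was called between the control clones, near the background of 19.6%. This was Kcnj2, which fell in e4 (-2.47 ± 0.53, edgeR adjusted p = 0.00285), a call lost without e4 library 2.

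Of the sodium channels, Scn2a, a pore of central axons, ranged from 0.419 to 6.01 CPM and was not called in the 8-group test (adjusted p = 0.0692).

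Among calcium channel pores, Cacna1a, the P/Q-type pore of presynaptic terminals (chromosome 8, 84338639 to 84640246, plus strand), had 5.86 and 5.04 CPM in WT, 20.8 and 17.9 CPM in METTL3 KO, 6.91 and 7.90 CPM in e1, 5.90 and 6.73 CPM in e4, 7.27 and 6.51 CPM in ko1-4, 22.1 and 23.0 CPM in ko2-3, 35.2 and 38.0 CPM in m2, and 28.6 and 22.4 CPM in m3. METTL3 KO, ko2-3, m2 and m3 lay above the other 4 groups with no overlap. The rise in ko2-3 against ko1-4 was 1.69 ± 0.17 (edgeR adjusted p = 2.30e-06). Cacna1g, a low-voltage-activated T-type pore (chromosome 11, 94408391 to 94474198, minus strand), had 6.98 and 4.94 CPM in WT, 16.8 and 13.7 CPM in METTL3 KO, 4.06 and 3.37 CPM in e1, 4.10 and 2.22 CPM in e4, 1.47 CPM in both ko1-4 libraries, 1.77 and 1.22 CPM in ko2-3, 1.0 and 1.27 CPM in m2, and 1.01 and 0.911 CPM in m3. Here the 8 RBM45 KO and rescue libraries lay below the 4 control libraries. Cacna1c ranged from 75.8 to 250 CPM, with WT lowest and m3 highest by group mean. None of the 4 calcium channel pores was called between the control clones. With a background of 19.6% of all rows, 4 genes are too few to tell this from the background.

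**Figure D4:**
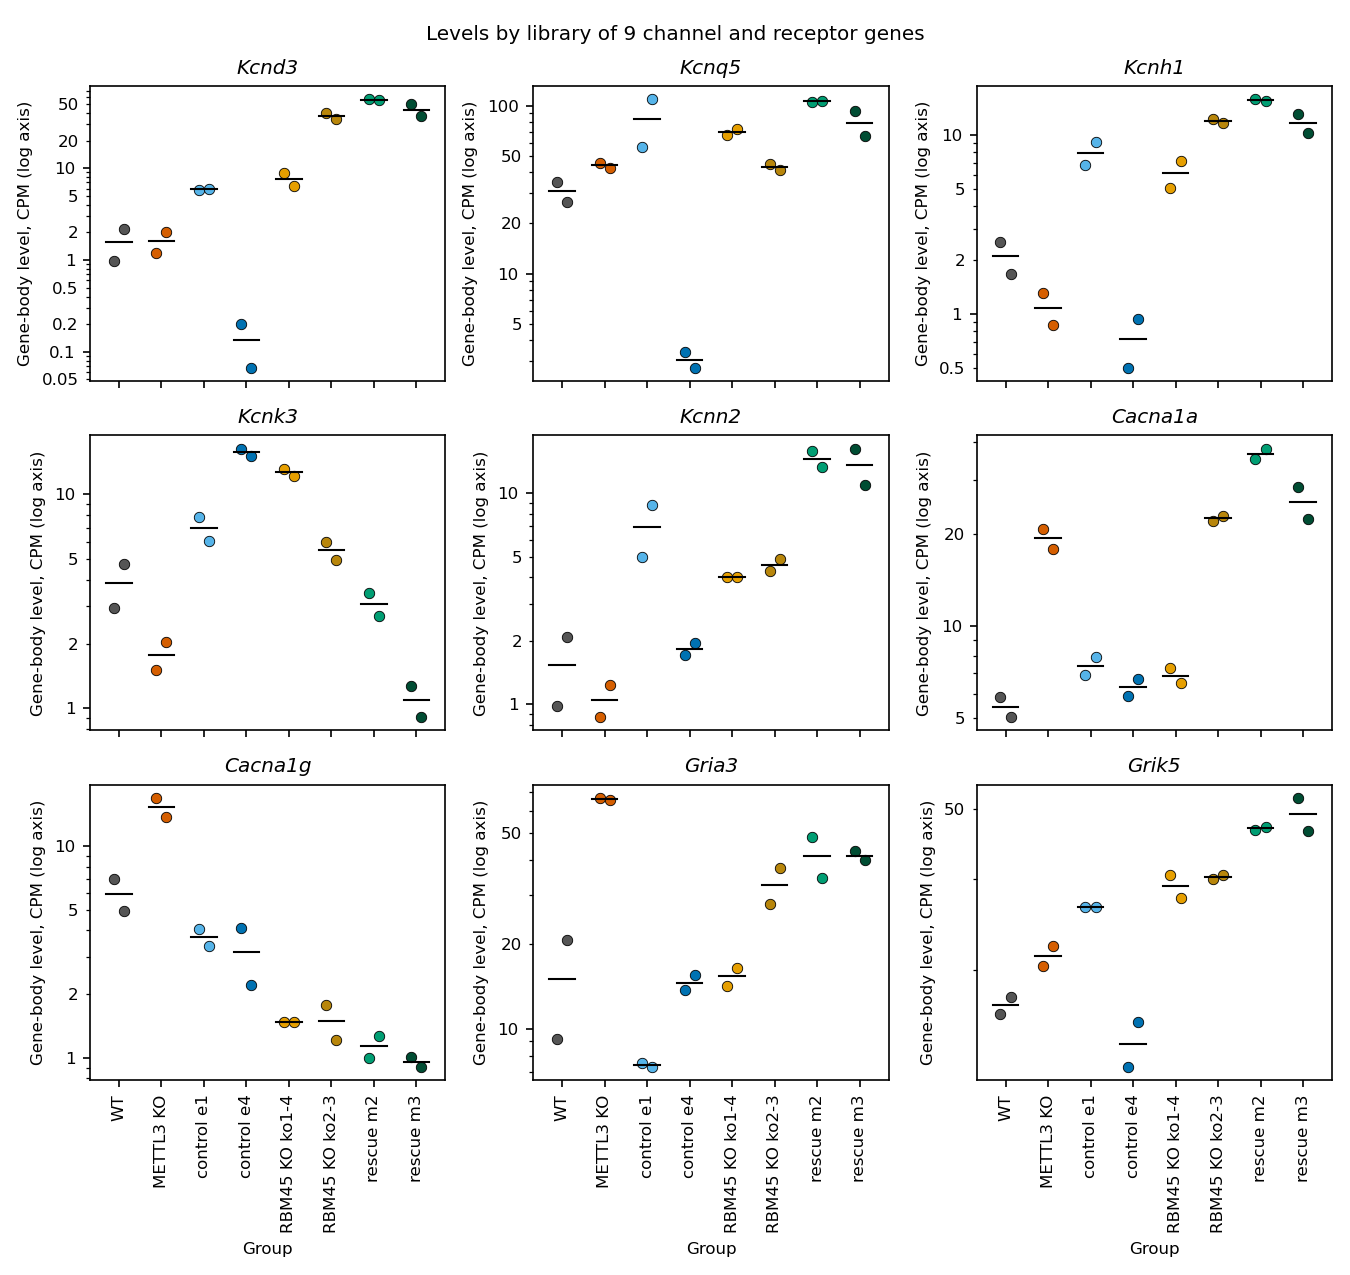
Gene-body level in CPM (log axis, each panel with its own range) of 9 genes in the 8 groups; points are the 2 libraries of a group and the line is their mean. Kcnd3 spans from 0.0673 CPM in e4 to 56.1 CPM in m2, Kcnk3 is lowest in m3, Kcnn2 is highest in m2 and m3, and Cacna1g is lower in all RBM45 KO and rescue libraries than in the controls.

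Calcium channel auxiliary subunits ranged from steady to clone-specific. Cacnb3 had 67.4 and 55.2 CPM in e4 and 29.7 to 45.2 CPM in all other libraries, a rise of 0.96 ± 0.15 in e4 against e1 (edgeR adjusted p = 1.40e-04). Cacna2d3, an extracellular subunit (chromosome 14, 28904943 to 29721864, minus strand), had 7.39 and 4.62 CPM in m3 and 0.335 and 0.0793 CPM in m2; m3 is the group through which it passed the level. Only 7.58% of its exon and intron counts were exonic. Cacng8, which regulates AMPA receptors, fell in e4 against e1 (-1.17 ± 0.26, adjusted p = 0.00437), and Cacng7 rose slightly in ko2-3 against ko1-4 (0.52 ± 0.17, adjusted p = 0.0459). Cacnb1, Cacnb2, Cacnb4 and Cacna2d1 were called in the 8-group test and in none of the comparisons of clones of 1 genotype.

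Of the glutamate receptor subunits, Gria3 (chromosome X, 41400854 to 41678601, plus strand) had 9.21 and 20.8 CPM in WT, 66.3 and 65.3 CPM in METTL3 KO, 7.55 and 7.32 CPM in e1, 13.7 and 15.5 CPM in e4, 14.2 and 16.5 CPM in ko1-4, 27.7 and 37.4 CPM in ko2-3, 48.2 and 34.3 CPM in m2, and 43.0 and 39.8 CPM in m3. METTL3 KO was above every other group, and ko2-3, m2 and m3 were above WT, the controls and ko1-4. Grin2a, an NMDA receptor subunit, was highest in m2 (8.43 and 9.99 CPM) and METTL3 KO (6.84 and 8.25 CPM) and had 4 counts in e4. It was lower in m3 than in m2 (-2.94 ± 0.38, edgeR adjusted p = 2.23e-04) and higher in ko2-3 than in ko1-4 (2.83 ± 0.56, adjusted p = 0.00180; not called with exon bins only). Grik5 moved little, from 22.1 CPM in e4 to 51.6 CPM in m3, and fell by 0.60 ± 0.12 in e4 against e1 (adjusted p = 0.00214). Grin2d fell there by 0.67 ± 0.16 (adjusted p = 0.00533); Kdelr1 on its other strand held 4193 counts against its own 2444.

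Inhibitory receptor subunits were few and uneven. Gabre, the epsilon subunit of GABA-A receptors (chromosome X, 72255999 to 72274803, minus strand), had 1.12 and 2.57 CPM in WT, 0 and 0.185 CPM in METTL3 KO, 1.52 and 3.0 CPM in e1, 0.300 and 1.35 CPM in e4, 3.37 and 2.34 CPM in ko1-4, 0.0843 and 0.0763 CPM in ko2-3, 0.112 and 0.159 CPM in m2, and no count in m3. Among the groups, ko1-4, through which it passed the level, had the highest mean. Glrb, the subunit that anchors glycine receptors at synapses (chromosome 3, 80843599 to 80913660, minus strand), had 9.26 and 9.12 CPM in m2 and 0.134 and 0.846 CPM in m3 (-4.19 ± 0.37, edgeR adjusted p = 6.39e-06). It was also higher in ko2-3 than in ko1-4 (1.91 ± 0.37, adjusted p = 0.00137) and in e4 than in e1 (1.35 ± 0.35, adjusted p = 0.0101); the last call was lost without e1 library 1 or e4 library 1. Glra4 did not pass the 8-group test.

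The METTL3 KO clone was compared with WT to address the loss of METTL3. With 1 clone, the genotype and the clone cannot be told apart, and e4 and e1, of 1 genotype, differed at 24 of the 46 genes. Here 15 of 46 genes were called, 9 higher and 6 lower, against 22.9% of all rows tested (11.2% higher and 11.8% lower) and 25.1% of rows of at least 1 CPM. The rows of all 4 calcium channel pores were called higher: Cacna1a by 1.82 ± 0.19 on the log2 scale (edgeR adjusted p = 6.90e-06), Cacna1g by 1.36 ± 0.25 (adjusted p = 0.0010), Cacna1d by 0.96 ± 0.27 (adjusted p = 0.0169) and Cacna1c by 0.88 ± 0.25 (adjusted p = 0.0188). For Cacna1d, Dcp1a on the other strand held 4131 counts against its own 801, of which 6.28% were exonic. Its rise therefore cannot be told apart from one of Dcp1a. Gria3 rose by 2.09 ± 0.24 (adjusted p = 2.00e-05) and Grin2a by 1.39 ± 0.38 (adjusted p = 0.0145). Scn2a (1.33 ± 0.43), Kcnip3 (2.04 ± 0.37) and Cacnb4 (0.93 ± 0.30), a calcium channel beta subunit, were the other rises. Gabre fell by 3.96 ± 0.86 (adjusted p = 0.00377). Kcnip1 (-1.36 ± 0.24), Kcnt2 (-1.31 ± 0.30), Kcnk3 (-1.12 ± 0.29) and Cacna2d3 (-1.38 ± 0.46) also fell. None of the 8 Kv pore subunits and none of the 4 inward rectifiers was called, beside the background of 22.9%. The median log2 change was 0.25 over the 46 genes and 0.01 over all rows.

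Several of these calls rested on single libraries: 8 of the 46 genes were called without METTL3 KO library 2, and 8 to 11 without any 1 of the 4 libraries. Of all rows, 1747 of 16957 were called without METTL3 KO library 2. Cacna1c, Cacna1d and Scn2a were among the losses without WT library 1, METTL3 KO library 1 or METTL3 KO library 2, Cacnb4 without WT library 1 or 2 or METTL3 KO library 2, and Cacna2d3 without any 1 of the 4; Cacnb4 and Cacna2d3 were also lost under DESeq2. Kcnk3 was lost without WT library 2 or METTL3 KO library 1, Grin2a without WT library 2 or METTL3 KO library 2, Gabre without WT library 2 and Kcnt2 without METTL3 KO library 2. With exon bins only, 9 of the 46 genes and 2693 of 15031 rows were called, so the shares were near each other. Not all of the 46 genes had a value in that fit, and those without count here as not called. The 2 shares therefore do not compare directly. Kcnip3, Grin2a, Scn2a, Cacnb4 and Kcnt2 no longer passed. Summed mesenchymal markers were at 954 to 990 CPM in METTL3 KO and 1169 to 1513 CPM in WT. Summed neuron markers, mostly Map2, were at 84.5 to 95.9 CPM and 46.9 to 72.6 CPM. Progenitor markers were at 143 to 175 CPM and 295 to 300.3 CPM, astrocyte markers at 3.80 to 3.82 CPM and 9.21 to 14.6 CPM, microglia markers at 36.6 to 38.2 CPM and 42.9 to 57.8 CPM, and endothelial markers at 1.11 to 1.19 CPM and 2.08 to 3.35 CPM. Those of oligodendrocytes overlapped, and the 12 top rows took 53.5% to 56.8% and 64.6% to 68.5% of the libraries. The part of these in the changes was not tested. In bulk RNA, fewer cells that express a gene and less RNA per cell cannot be told apart.

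As a Cas9 clone, METTL3 KO can also be set against the control clones. Here 22 of 46 genes were called, 15 higher and 7 lower (background 30.6%, with 16.1% higher and 14.5% lower, and 32.2% of rows of at least 1 CPM). Among the largest rises with no overlap were Grin2a (4.23 ± 0.40, edgeR adjusted p = 3.80e-07), Gria3 (2.68 ± 0.19, adjusted p = 1.36e-08) and Cacna1g (2.20 ± 0.20, adjusted p = 3.03e-07). Kcnj4 (1.76 ± 0.27), Kcnip3 (1.57 ± 0.27), Cacna1a (1.51 ± 0.14), Cacnb4 (1.08 ± 0.23) and Kcnj14 (0.94 ± 0.32) also rose. Gabre (-3.50 ± 0.80), Kcnk3 (-2.48 ± 0.22), Kcnn2 (-1.69 ± 0.36) and Kcnip1 (-1.0 ± 0.21) fell. Without METTL3 KO library 2 the count was 14 (2768 of 16957 rows), and Cacnb4 and Kcnip1 were among the losses. Kcnj14 was lost under DESeq2 and without METTL3 KO library 1, e1 library 1 or e4 library 2. Cacnb4 and Kcnn2 were lost with exon bins only. The fitted change averages the log levels of e1 and e4, so Kcnq5 was called higher by 1.5 ± 0.22 although its mean level was 44.2 CPM in METTL3 KO and 43.0 CPM over the control libraries. This comparison shares the METTL3 KO libraries with the one above. Summed markers lay apart here too: mesenchymal at 954 to 990 CPM in METTL3 KO and 1544 to 2786 CPM in the controls, progenitor at 143 to 175 CPM and 255 to 372 CPM, and neuron at 84.5 to 95.9 CPM and 101 to 143 CPM. Those of 8 oligodendrocyte genes, of which only Cspg4 reached 1 CPM, were at 44.7 to 45.8 CPM and 91.9 to 111 CPM, and the 3 endothelial genes at 1.11 to 1.19 CPM and 0.444 to 1.08 CPM; astrocyte and microglia markers overlapped. Their part was not tested. Kcnn3 and Grin2a had means of 0.278 and 0.585 CPM in the control clones, 2.1 and 3.09 CPM in WT, and 3.86 and 7.54 CPM in METTL3 KO.

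Control clones against WT show what differed without any guide RNA. Of 46 genes, 11 were called, 1 higher and 10 lower (background 8.99%, with 3.19% higher and 5.79% lower, and 9.57% of rows of at least 1 CPM). Kcnk3 rose by 1.36 ± 0.21 (edgeR adjusted p = 4.11e-04). Cacna2d3 fell by 2.98 ± 0.48 (adjusted p = 6.16e-04), Kcnn3 by 2.91 ± 0.53 (adjusted p = 0.00179), Grin2a by 2.85 ± 0.52 (adjusted p = 0.00175) and Cacna1g by 0.84 ± 0.24 (adjusted p = 0.0374), all with no overlap. The count ran from 5 without WT library 1 (435 of 17089 rows), which also ended the calls of Grin2a and Cacna1g, to 14 without e4 library 1 (2123 of 17123 rows). Cacna1g was also lost without e1 library 2 or e4 library 2, under DESeq2 and with exon bins only. Without a filter on low counts the count was 17 (1962 of 31806 rows). For Kcnq5, Kcnt2, Kcnk13 and Kcnj4, called as lower, the control libraries overlapped those of WT. This comparison shares the WT libraries with METTL3 KO against WT.

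**Figure D5:**
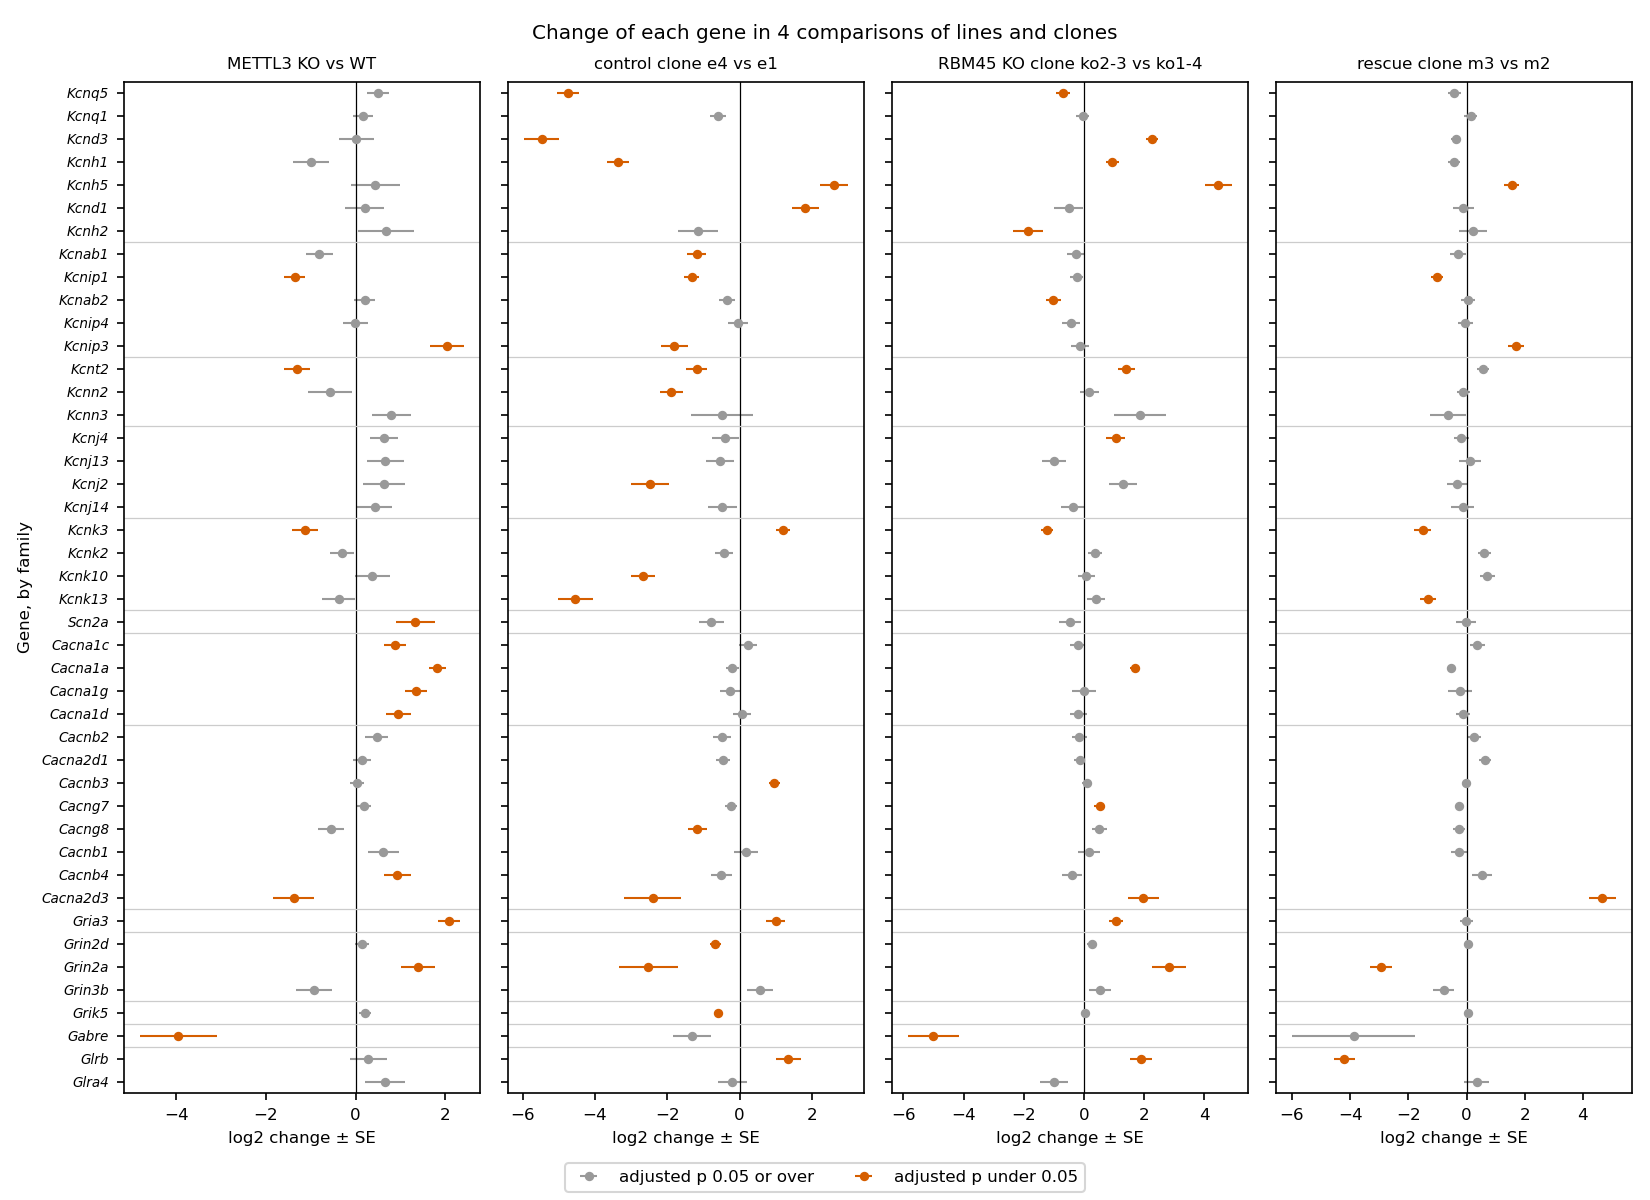
Log2 change with its SE (x axis) of 44 of the 46 genes (y axis, by family) in 4 comparisons; orange points have an edgeR adjusted p under 0.05 and grey points do not. All 4 calcium channel pores are orange and right of 0 in METTL3 KO against WT, though reads of Cacna1d cannot be told apart from those of Dcp1a on the other strand. Kcnd3, Kcnq5 and Kcnk13 lie furthest left in e4 against e1. The points of Cacna2d3 in m3 against m2 and Gabre in ko2-3 against ko1-4 rest on groups through which these genes passed the level.

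The effect of RBM45 was tested with the clone as the unit, since the clone received the edit. The fit takes the clones as independent, although the rescue clones were made from RBM45 KO cells. With the libraries of each clone summed, 0 of 46 genes were called in RBM45 KO against control, 0 in rescue against RBM45 KO and 0 in rescue against control, and in each 0 of 16867 rows were (edgeR quasi-likelihood test, 2 clones against 2; background 0%). At an unadjusted p under 0.05 the counts were 4, 8 and 17 of the 46 genes, and 983, 1239 and 2620 of all rows. DESeq2 called 0, 0 and 6 of the 46 genes, and 6, 40 and 439 rows. In simulated data of this fit, 28.0% of changes of 2-fold and 89.5% of changes of 4-fold were recovered, so a 2-fold change was more often missed than found. The changes were placed only in rows of higher counts, with the spread typical of their level. Recovery for genes of few counts or wider spread was not measured.

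In RBM45 KO against control, the smallest unadjusted p belonged to Cacna1g (1.49 ± 0.225 against 3.44 ± 0.879 CPM, SD of 4 libraries of 2 clones; log2 difference -1.16 ± 0.27, edgeR adjusted p = 0.754). Kcnj4 had 3.27 ± 1.37 against 1.62 ± 0.488 CPM (1.04 ± 0.40, adjusted p = 0.754). Gria3 had 24.0 ± 10.7 against 11 ± 4.20 CPM, and Kcnd3 22.2 ± 17 against 3.0 ± 3.31 CPM. None passed the test. The outcome depended on the pair of clones: ko1-4 against e1 gave 1 called gene of 46 (Kcnk3, 0.90 ± 0.20, adjusted p = 0.0361; background 0.771%), ko1-4 against e4 20 (background 18.4%), ko2-3 against e1 16 (background 17.2%) and ko2-3 against e4 28 (background 25.5%). No gene of the 46 was called the same way in all 4 pairs, and 17 of all rows were (0.105%). Cacna1g, named after its values were seen, was lower in all 4 pairs by 1.04 to 1.30 on the log2 scale, with an adjusted p of 0.0895 in ko1-4 against e1; with exon bins only, and with the replicate block, all 4 pairs were called.

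In rescue against RBM45 KO, the 5 smallest unadjusted p-values belonged to Cacnb2, Kcnn2, Kcnk3, Kcnt2 and Cacnb1, none of which passed (edgeR adjusted p = 0.662 for each). Kcnn2 had 14.1 ± 2.42 CPM in the rescue libraries and 4.29 ± 0.417 CPM in RBM45 KO (SD, 4 libraries of 2 clones). It was the 1 gene of the 46 called higher in all 4 clone pairs, by 1.56 to 1.85 on the log2 scale, and none was called lower (0.185% of all rows higher, 0.0555% lower, 0.240% in all). With exon bins only it was not called in every pair. Summed mesenchymal markers were at 1809 to 2249 CPM in the rescue libraries and 2260 to 3369 CPM in RBM45 KO, oligodendrocyte markers at 48.1 to 58.8 CPM and 74.1 to 128 CPM, and microglia markers at 40.8 to 43.6 CPM and 45.4 to 47.7 CPM, while the other 4 lists overlapped; their part was not tested. Cacnb2, a beta subunit, had 94.6 ± 18.1 against 57.7 ± 3.98 CPM, and Kcnk3 2.09 ± 1.20 against 9.07 ± 4.19 CPM. The exon share of Cacnb2 was also lower in rescue, at 10.7% in m2 and 8.91% in m3 against 12.8% in ko1-4 and 16.6% in ko2-3. Both rescue clones gave few calls against ko2-3 (5 each; background 1.38% for m2 and 1.78% for m3) and 18 each against ko1-4 (background 18.9% for m2 and 21.5% for m3).

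In rescue against control, the median absolute log2 difference was 0.79 over the 46 genes and 0.29 over all rows. Gria3 had 41.3 ± 5.80 against 11 ± 4.20 CPM (1.90 ± 0.45), Cacna1a 31.0 ± 6.95 against 6.86 ± 0.821 CPM (2.14 ± 0.53), Kcnj4 4.62 ± 0.591 against 1.62 ± 0.488 CPM (1.53 ± 0.39) and Cacna1g 1.05 ± 0.154 against 3.44 ± 0.879 CPM (-1.70 ± 0.28). With an edgeR adjusted p of 0.276 for each, none passed at the level of clones. DESeq2, on the same summed counts, called 6 genes, among them Gria3 (adjusted p = 0.00298), Cacna1a (0.00401), Cacna1g (0.0120), Kcnt2 (0.0137) and Kcnk3 (0.0149). Without ko1-4 or without ko2-3, each of which leaves an RBM45 KO clone to be assumed as variable as the rest, Cacna1a passed.

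Across all 4 pairs of a rescue and a control clone, 13 of the 46 genes were called the same way, against 7.51% of all rows tested. Those higher in rescue (9) included Cacna1a, Cacng7, Gria3, Grik5, Kcnd3, Kcnj4, Kcnn2 and Kcnt2, and those lower (4) were Cacna1g, Gabre, Kcnab2 and Kcnk3 (background 3.61% higher and 3.91% lower). Cacna1a was 1.79 to 2.51 higher on the log2 scale over the 4 pairs, Gria3 1.49 to 2.49, Kcnd3 2.90 to 8.73 and Grik5 0.37 to 1.03. Kcnk3 differed by -1.13 to -3.84. These pairs share libraries: m2 gave 21 called genes against e1 (background 19.2%) and 29 against e4 (background 30.3%), and m3 gave 19 (background 18.7%) and 31 (background 30.8%). If m2 and m3 came from the same RBM45 KO clone, the 4 pairs also share a lineage, which was not tested. With exon bins only, in a fit without a value for every 1 of the 46 genes, 7 genes met the rule. Several marker lists lay apart between these genotypes. Summed oligodendrocyte markers, nearly all Cspg4, were at 48.1 to 58.8 CPM in the rescue libraries and 91.9 to 111 CPM in the controls, neuron markers at 80.6 to 94.9 CPM and 101 to 143 CPM, astrocyte markers at 0.716 to 1.19 CPM and 2.79 to 25.7 CPM, and endothelial markers at 0.201 to 0.397 CPM and 0.444 to 1.08 CPM. Mesenchymal (1809 to 2249 CPM and 1544 to 2786 CPM), progenitor and microglia markers overlapped. Their part was not tested.

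Use of single exon bins within the 46 genes gave no call. With bins of a mean of at least 10 counts, 94 bins of 10 of these genes could be tested in METTL3 KO against WT and 206 bins of 19 genes in each RBM45 comparison, so most of the genes were too low for this test. None was called by edgeR's diffSpliceDGE in the 4 comparisons; at an unadjusted p under 0.05 there were 6, 1, 1 and 2 bins. That is 6.38%, 0.485%, 0.485% and 0.971% of the bins of these genes, beside 2.87%, 0.665%, 0.839% and 0.935% of all bins. Over all genes, 14 of 101929 bins (0.0137%) were called for METTL3, and 4, 1 and 6 of 140500 bins (0.00285%, 0.000712% and 0.00427%) in RBM45 KO against control, rescue against RBM45 KO and rescue against control. The smallest p in METTL3 KO against WT was for a bin of Cacnb3 (chromosome 15, 98639517 to 98639610), which differed by 0.88 on the log2 scale relative to the rest of the gene and was not called.

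Genes that work beside these channels were counted in the same way, against the backgrounds of 22.9% in METTL3 KO against WT and 19.6% in e4 against e1. Of 94 other ion channel genes, 54 were tested, and 18 were called in METTL3 KO against WT (7 higher, 11 lower; 33.3%) and 15 in e4 against e1 (9 higher, 6 lower; 27.8%). Ryr3, an intracellular calcium release channel, was at 0.262 CPM in METTL3 KO and 3.81 CPM in WT (log2 change -3.83, edgeR adjusted p = 3.90e-04), and P2rx7, an ATP-gated channel, at 9.40 CPM in e4 and 2.43 CPM in e1 (1.98, adjusted p = 1.16e-05). Of 61 genes of channel anchoring and assembly, 41 were tested, with 10 called in METTL3 KO against WT (24.4%) and 9 in e4 against e1 (22%), shares near the background. Ank3, which anchors sodium and Kcnq channels at the axon's start, was at 22.3 CPM in e4 and 50.1 CPM in e1 (-1.14, adjusted p = 1.88e-04). Of 48 metabotropic receptor genes 13 were tested; 6 were called in METTL3 KO against WT (46.2%) and 3 in e4 against e1 (23.1%, near the background). Grm8, a presynaptic glutamate receptor, was at 6.07 CPM in ko2-3 and 0.0868 CPM in ko1-4 (5.84, adjusted p = 5.89e-07). Of 27 pumps and ion transporters 19 were tested, 8 and 6 of them called (42.1% and 31.6%). Atp1b1, a subunit of the sodium pump, was at 3.37 CPM in e4 and 25.1 CPM in e1 (-2.84, adjusted p = 3.22e-09), and Slc8a1, a sodium-calcium exchanger, at 2.68 and 14.9 CPM (-2.39, adjusted p = 8.14e-07).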

How the data were processed

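Total RNA of 16 libraries was sequenced after ribosomal RNA removal. Per the submitters' processing notes, reads were aligned to mm10 with HISAT2 2.1.0, and DESeq2 1.32.0 is also named. The authors deposited raw counts of fragments from featureCounts 1.6.3 per the file headers, in 3 tables: whole gene bodies and exon bins (Ensembl 98, GRCm38) and introns (RefSeq). A fragment counted in each feature holding 0.1 of it, and only on the feature's strand, per the file headers. Per the labels' protocols the library kit keeps no strand, so part of each gene's fragments went uncounted or to an antisense row. Without molecular identifiers, intervals reflect only the error of counting.

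Levels are CPM scaled by TMM. Rows were fitted with edgeR 4.0.16 (glmQLFit and glmQLFTest, filterByExpr, Benjamini-Hochberg adjustment over all rows tested, called under 0.05). One fit took the 16 libraries in 8 groups (16223 rows, 8 residual degrees of freedom). Another took the 6 control, RBM45 KO and rescue clones with their 2 libraries summed (16867 rows, 3 residual degrees of freedom). Exon bins were tested with diffSpliceDGE. All 46 genes passed the filter in both fits. Joined rows (1397 of the table) were split at the plus sign; Gria3 and Cacng8 come from such rows. Tests were checked on simulated counts for METTL3 KO against WT: 92.0% of 200 changes of 2-fold and 99.5% of 200 changes of 4-fold were recovered among 16223 rows. The changed rows were of higher counts and had the spread typical of their level, so recovery for low or more variable genes was not measured.

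The genes and lists were chosen with earlier results of these data known. Genes named in a comparison are those called whose libraries do not overlap, up to 10 in each direction, or the 5 of smallest p where fewer than 5 passed; in each family those of highest exon level; and the 5 of smallest p in the 8-group test. Other called genes and members are given as counts or to complete a family. Alternatives were DESeq2 1.42.0 as test or for size factors, no filter, exon bins only, a replicate block and leaving out each library or clone. Some results that met these rules are not reported here, and the plots of single genes leave out 2 of the 46 genes.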

Additional observations from a re-analysis of the deposited data

Results flagged for a closer look

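Within the 3 genotypes of 4 libraries, 9 of 138 gene and genotype combinations had a library that stood far from the other 3; chance flags about 1 in 20 where 4 libraries vary alike, whereas these are 2 libraries of each of 2 clones, so that rate does not apply directly. In the control libraries, Kcnh2 was at 0.202 CPM in e4 library 2 against 1.40 to 1.63 CPM in the others. Kcnj4 was at 2.35 CPM in e1 library 1 against 1.35 to 1.40 CPM, and Cacng7 at 14.5 CPM in the same library against 10.6 to 11.2 CPM. In RBM45 KO, Kcnip3 was at 2.60 CPM in ko1-4 library 2 against 2.28 to 2.32 CPM, Cacnb4 at 2.17 CPM in that library against 1.37 to 1.47 CPM, and Kcnk13 at 4.89 CPM in ko2-3 library 1 against 2.95 to 3.20 CPM. In the rescue libraries, Kcnn3 was at 1.27 CPM in m2 library 2 against 0.391 to 0.521 CPM, Cacnb2 at 121.8 CPM in m3 library 1 against 84.1 to 86.7 CPM, and Grik5 at 51.6 CPM in that library against 46.5 to 47.1 CPM.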

How the results depend on the processing

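No value of the 90 named gene results changed sign in any of 874 alternative values. Counts of genes called moved by over 1.5 times as follows. With exon bins only, METTL3 KO against WT gave 9 (2693 of 15031 rows) and m3 against m2 4 (263 of 15031 rows). The genes called alike in all 4 pairs were then 1 for RBM45 KO against control, 0 for rescue against RBM45 KO and 7 for rescue against control. Without a filter, control clones against WT gave 17 (1962 of 31806 rows). DESeq2 gave 6 for rescue against control at the level of clones (439 of 16867 rows). Correlations of same-numbered deviations ran from -0.324 to 0.508 (median 0.0908), over 0.1 in 14 of 28 pairs of groups. Whether the numbers of replicates pair the libraries is therefore not settled. In METTL3 KO against WT, 4005 of 16223 rows were called with the replicate block and 3721 without it. With the replicate block, 1 gene rather than 0 was called in all 4 pairs of RBM45 KO and control. A fit of 4 libraries per genotype with genotype and replicate block gave 15 for rescue against control (2099 of 14907 rows). That fit treats libraries of a clone as independent. Other counts with the replicate block stayed within 1.5 times.

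Leaving out 1 library gave 8 to 11 for METTL3 KO against WT, 14 to 24 for METTL3 KO against controls, 5 to 14 for controls against WT, 19 to 25 for e4 against e1, 9 to 14 for ko2-3 against ko1-4, 4 to 7 for m3 against m2, and 35 to 40 for any of 8 groups. Leaving out 1 clone gave 0 to 1 for rescue against control. In these, 32 of the 90 named results lost their call at least once. Depth limits low genes most. In exon bins, 36 of the 46 genes reached 1 CPM. Few exon-bin counts need not mean a low gene body: Kcnq1 had 48 beside 10760, and Cacna1d 51 beside 801.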
